A study of Xenopus laevis with 6 samples.

Results

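The hedgehog ligand, receptor and Gli genes measured here are 10 genes of Xenopus laevis, namely ihh.S, shh.L, hhip.L, ptch1.S, smo.L, boc.L, gli1.S, gli2.L, gli2.S and gli3.L. Every probe set (a group of short probes on an Affymetrix array that read a single transcript) that the platform's gene table assigned to these symbols was taken, dim and second probe sets included. This gave 10 of the 7531 genes named by a probe set of their own, read by 13 of the 15491 probe sets that are not array controls. X. laevis carries pairs of genes, marked .L and .S, from an ancient genome duplication, and 1 of the 13 probe sets is assigned to both gli2 copies. RNA came from pronephric explants, pieces of embryonic flank that hold the rudiment of the larval kidney, cut at stage 24. There were 3 pools of explants treated with bhh and 3 pools of untreated explants, with 300 explants and 1 array for each pool. Bhh is banded hedgehog, a secreted hedgehog ligand whose gene is now named ihh. How it was supplied is not given in the labels, and no mock treatment is named there, so effects of bhh and of the procedure cannot be told apart. A number from 1 to 3 marks the arrays in each group, and nothing says what the number or a pool shares beyond that, so the p-values below measure the spread between these pools.

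Hedgehog ligands such as Ihh and Shh bind Patched receptors on the receiving cell. Without ligand, Patched holds the membrane protein Smoothened inactive. With ligand, Smoothened is released and the Gli transcription factors switch on target genes. Boc is a coreceptor that helps present the ligand, while Hhip binds the ligand at the membrane and lowers signalling. In vertebrates, PTCH1, HHIP and GLI1 are also direct targets of the pathway, so their transcripts are widely used as readouts of it. Gli2 acts mainly as an activator and Gli3 mainly as a repressor.

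Each value is a MAS5 signal, an intensity on a linear scale computed by the authors for each probe set and array. As a level for probes without their transcript, the 95th percentile of 44 control probe sets for bacterial genes and artificial tags was used, which was a signal of 37.6. The 6 arrays had the same trimmed mean signal, and their medians lay between 148.7 and 169.2. Differences were fitted on log2 signals with limma over 11618 probe sets, after the dimmest 25% had been removed, and p-values were adjusted by the Benjamini-Hochberg method with a threshold of 0.05. Of the 13 member probe sets, 11 passed this filter. Those of gli1.S and ptch1.S did not, with geometric mean signals of 9.66 and 19.1 over the 6 arrays against a limit of 47.0.

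The ligand gene and the gene of the ligand-binding protein Hhip were higher in treated explants, and no other member passed the test. In all, 3 of the 11 tested probe sets rose (1 of ihh.S and 2 of hhip.L). None fell, also at an unadjusted p under 0.05 in limma. Over all tested probe sets, 0.74% rose and 0.637% fell. Nothing is read from this share, since ihh.S passed the filter through its treated arrays alone and the 2 probe sets of hhip.L read 1 gene. The explants are mixed tissue, and in such bulk RNA fewer cells of a type and less RNA per cell cannot be told apart. The other 8 tested probe sets had log2 fold changes between -0.05 and 0.65. Of these values 7 were above 0, as were 50.5% of those over all tested probe sets. Several of the 8 read smo.L or the gli2 copies, so they do not stand for 8 separate genes. The median over the 11 was 0.33, against 0.0027 over all tested probe sets. It includes ihh.S and repeated probe sets of hhip.L, smo.L and gli2, so nothing is read from it either. With no filter, the same number of member probe sets passed, 3 of 13, against 0.51% of all probe sets that rose. In a fit with the array number as a block, 4 of the 11 passed, by 1 probe set of smo.L, against 3.65% of tested probe sets that rose.

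**Figure D1:**
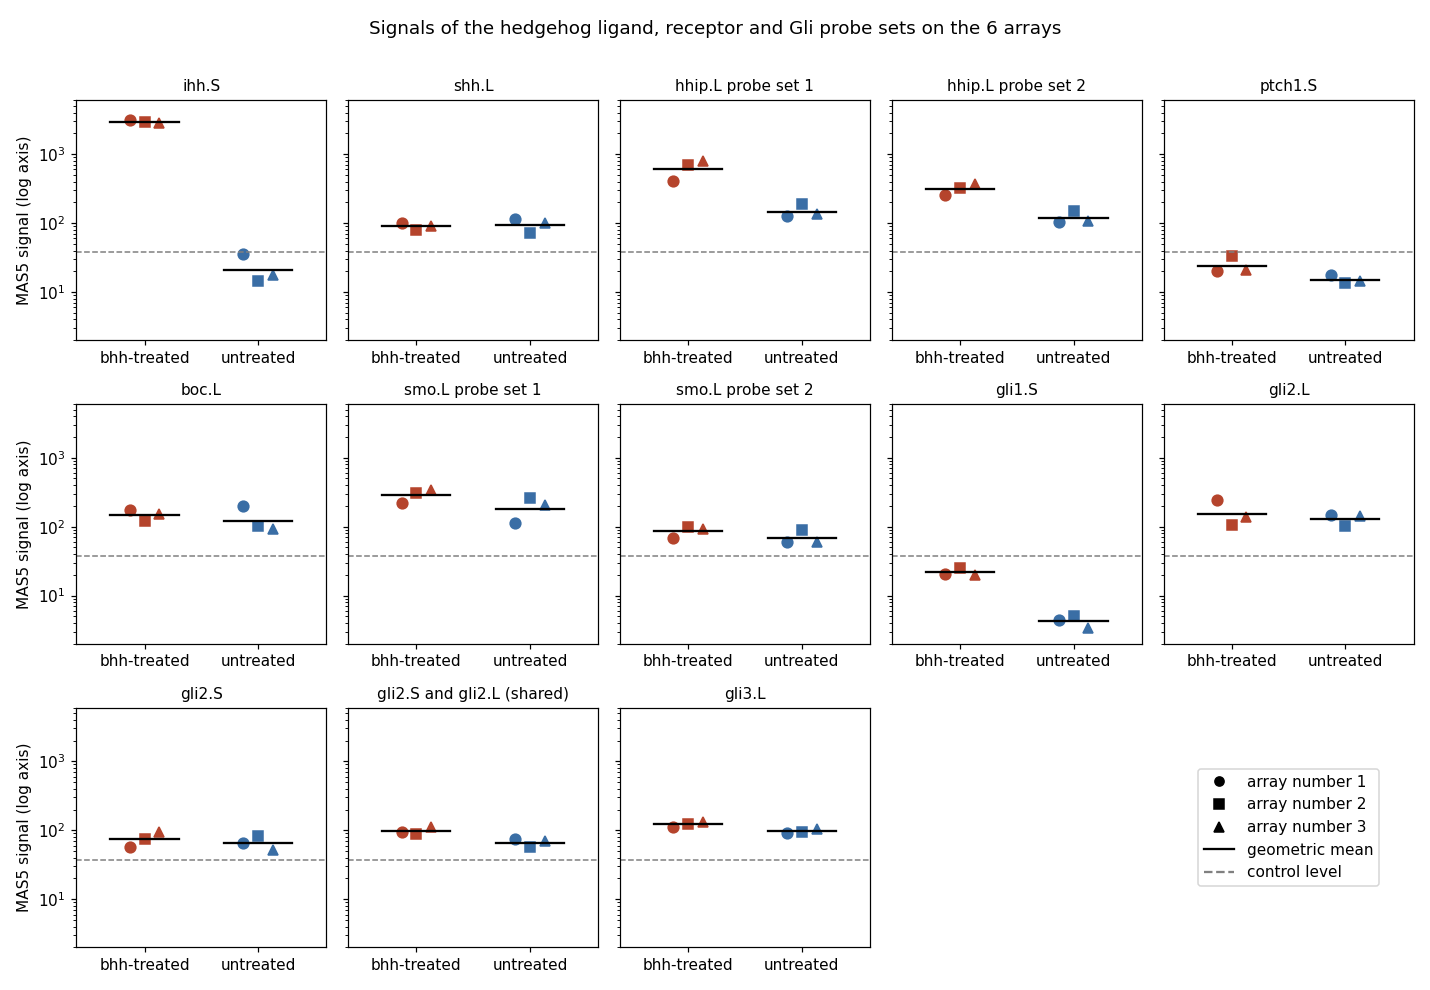
MAS5 signal (log axis) of each of the 13 member probe sets on the 3 bhh-treated arrays (left, red) and the 3 untreated arrays (right, blue). Symbols give the array number, black lines the geometric mean and the dashed line the control level of 37.6. For hhip.L and smo.L, probe set 1 is the brighter. Treated and untreated arrays do not overlap for ihh.S, hhip.L, ptch1.S, gli1.S, the shared gli2 probe set and gli3.L.

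Complete separation of the groups is a looser measure than a call, and it is more frequent over all probe sets too. All 3 treated arrays lay above all 3 untreated arrays for 7 of the 13 member probe sets (53.8%), against 8.25% of all probe sets. Among the 11 that passed the filter this held for 5, against 9.3% of those tested. The 7 were ihh.S, both hhip.L probe sets, ptch1.S, gli1.S, the probe set shared by both gli2 copies, and gli3.L. For none did all treated arrays lie below. Probe sets of the same gene read the same transcript and are not independent of each other, and ptch1.S and gli1.S lay under the control level on every array. As ihh.S is also the gene of bhh itself, nothing is read from these shares.

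Among the ligands, ihh.S changed and shh.L did not pass the test. ihh.S had signals of 3121.3, 2956.6 and 2824.2 on treated arrays 1, 2 and 3, against 36.0, 14.3 and 17.8 on untreated arrays 1, 2 and 3. All treated arrays were alike and far above the control level, while every untreated array was below it. The means were 2967 ± 149 in treated and 22.7 ± 11.7 in untreated explants (SD, n = 3 each). Set against the control level in place of the unmeasured untreated signal, ihh.S was at least 78.9-fold higher in treated explants. The limma adjusted p of 6.9e-07 belongs to the signals as deposited and not to this bound. As ihh.S passed the filter through its treated arrays alone, nothing more is read from that p. In the limma fit with no filter the adjusted p was 2.4e-06. Because bhh is itself the ihh product, this signal does not tell supplied transcript from the embryo's own. On the untreated arrays, ihh.S exceeded 39, 30 and 35 of the 44 control probe sets, so transcript was not detectable above that level there. With the highest control signal, 63.9, as the level, the bound was 46.4-fold.

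The other ligand gene, shh.L, encodes Sonic hedgehog, which notochord and floor plate secrete. Its signals were 100.5, 79.6 and 89.9 in treated explants, against 114.2, 70.7 and 99.2 in untreated explants. The groups overlapped throughout, and on both sides array 1 was highest and array 2 lowest. All 6 signals exceeded those of all 44 controls on the same array. The log2 fold change was -0.05 ± 0.24 (SE, limma adjusted p = 0.954), with a 95% confidence interval from -0.59 to 0.48, so that changes between 0.666-fold and 1.40-fold are within it. Of 8 listed notochord and floor plate markers, the array read 6 gene copies, shh.L included. Their summed signal ran from 1174 to 1464 in treated and from 1233 to 1515 in untreated explants. Most of it was col2a1.S alone, with 825.6 to 1184.4 in treated and 869.9 to 1260.6 in untreated explants. not.L was below the control level on every array. The sum therefore says little of the other copies or of how much midline tissue the explants held. The notochord gene tbxt.S had 38.8, 57.2 and 41.0 in treated and 53.1, 38.8 and 28.7 in untreated explants, close to the control level. Whether midline tissue supplied the shh.L signal was not tested. The dhh copies, which encode the third vertebrate hedgehog ligand, were below the control level on all 6 arrays (3.4 to 31.4 in treated and 2.9 to 17.4 in untreated explants).

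Among the genes for proteins that bind the ligand, hhip.L rose. Its brighter probe set had signals of 413.2, 707.0 and 803.7 in treated explants, against 124.9, 190.2 and 133.8 in untreated explants. Every treated array was above every untreated one, and treated array 1 was the lowest of its group. The log2 fold change was 2.07 ± 0.25 (SE, adjusted p = 0.0024), or 4.20-fold with a 95% confidence interval from 2.84-fold to 6.19-fold. Only ihh.S and 1 other of the 11618 tested probe sets had a larger fitted rise, and it ranked 29 by p.

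The second hhip.L probe set had signals of 258.0, 322.6 and 366.4 in treated explants, against 104.3, 149.0 and 108.5 in untreated explants. Again no arrays overlapped, and the order of the arrays within each group was that of the brighter probe set. Its log2 fold change was 1.39 ± 0.21 (SE, adjusted p = 0.0071), or 2.62-fold, with an interval from 1.91-fold to 3.61-fold. The log2 rise it read was smaller than that of the brighter one by 0.68, with an SE of 0.15 (exact two-sided permutation p = 0.1, the smallest that 3 against 3 arrays allow, and 0.5 adjusted over 5 pairs of probe sets). Both probe sets kept their call in all 17 alternative settings, with an adjusted p of at most 0.019 for the brighter and 0.047 for the second.

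**Figure D2:**
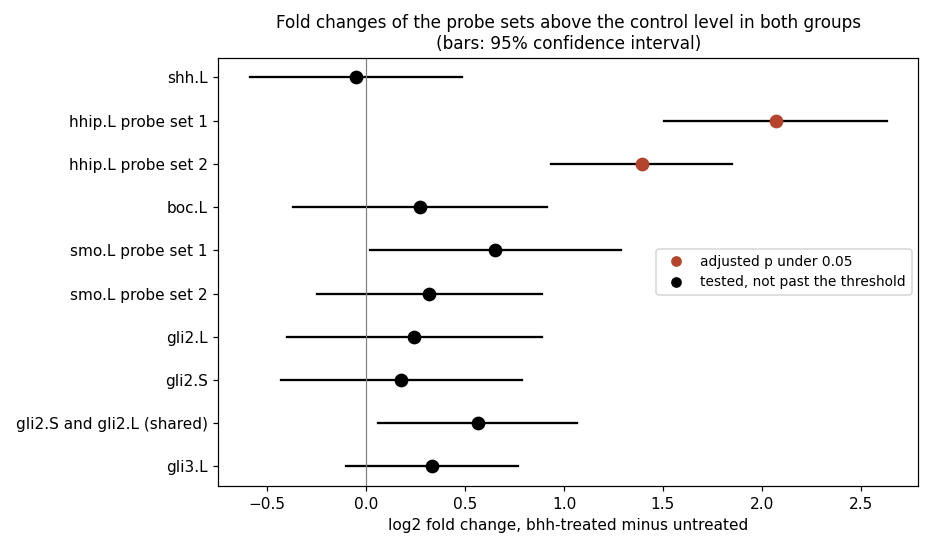
Log2 fold change of treated minus untreated explants for the 10 member probe sets above the control level in both groups. Points are limma estimates from 3 arrays a group, bars their 95% confidence intervals, not adjusted for the number of tests. Both hhip.L probe sets (2.07 and 1.39, red) stand apart, while the other 8 lie between -0.05 and 0.65.

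The ptch1.S probe set reads a Patched receptor gene. Its signals were 20.3, 33.6 and 20.8 in treated explants, against 17.8, 13.3 and 14.6 in untreated explants. The groups did not overlap, but treated array 1 was close to untreated array 1, and all 6 values were under 37.6. The signal exceeded 33, 42 and 37 of the 44 controls in treated and 31, 29 and 34 in untreated explants, so its place among the controls overlapped between the groups. With no filter, its adjusted p was 0.651 in limma (0.552 with the array number as a block), and no fold is given for a probe set below the control level in both groups. Among the controls, 7 of 44 differed upward by at least as much on the log2 scale. A difference in ptch1.S was not detectable at this signal.

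The coreceptor gene boc.L had signals of 171.8, 121.0 and 155.0 in treated explants, against 197.5, 101.1 and 91.7 in untreated explants. Untreated array 1 was the highest of all 6, and the groups overlapped. Its log2 fold change was 0.27 ± 0.29 (SE, adjusted p = 0.763), with an interval from -0.37 to 0.91. Between same-numbered arrays, boc.L was lower in treated explants for number 1 (a log2 difference of -0.20) and higher for numbers 2 and 3 (0.26 and 0.76).

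Both probe sets of smo.L, the gene of the signal transducer Smoothened, were higher on average in treated explants without passing the test. The brighter had signals of 223.5, 304.2 and 342.4 in treated explants, against 112.7, 259.5 and 204.6 in untreated explants. Untreated array 2 lay above treated array 1, so the groups overlapped. Same-numbered arrays all differed upward, by 0.99, 0.23 and 0.74 on the log2 scale for numbers 1, 2 and 3. The log2 fold change was 0.65 ± 0.29 (SE, adjusted p = 0.391), with an interval from 0.02 to 1.29. Without untreated array 1, its lowest array, the log2 fold change was 0.31. With the array number as a block, this probe set passed (adjusted p = 0.031 over the 11618 probe sets, of which 3.65% rose in that fit), but not with the block and no filter together (adjusted p = 0.076). That last setting was added once the data had been seen. The dimmer smo.L probe set had 68.9, 98.1 and 93.4 in treated explants, against 60.7, 89.3 and 59.9 in untreated explants. Its log2 fold change of 0.32 ± 0.26 (SE) passed in neither fit (adjusted p = 0.677, or 0.486 with the block). The probe sets of smo.L differed in their response by 0.33 on the log2 scale, with an SE of 0.27 (exact permutation p = 0.3). A probe set for the other copy, smo.S, which is not among the 10 genes, was below the control level on all arrays, with 5.7, 23.6 and 17.3 in treated and 22.2, 5.3 and 6.1 in untreated explants.

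**Figure D3:**
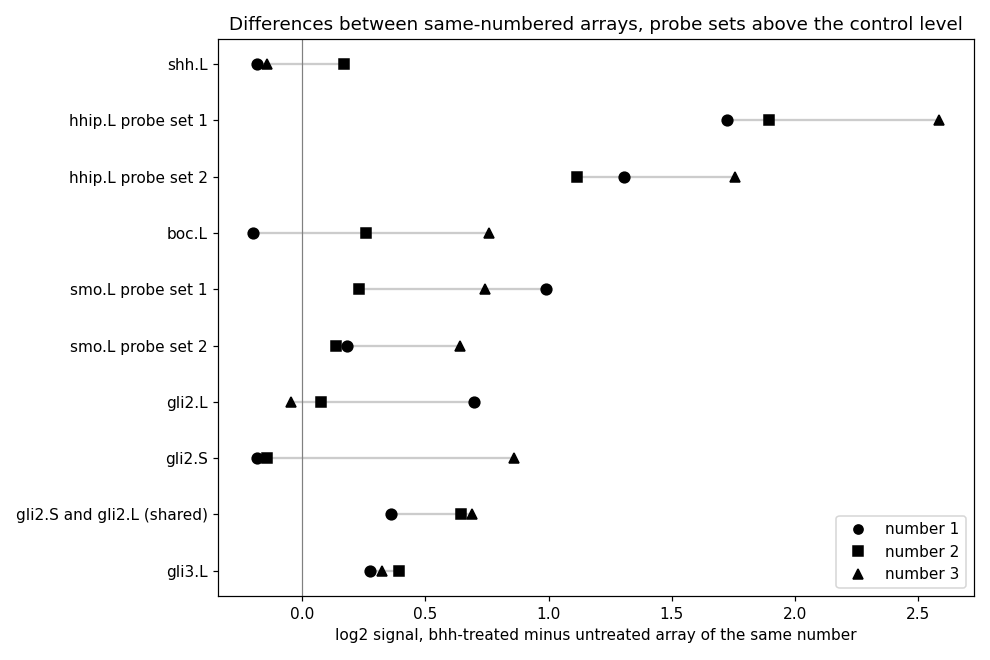
Log2 signal of each treated array minus that of the untreated array with the same number, for the 10 member probe sets above the control level in both groups. Symbols give the number. All 3 differences are above 0 for both hhip.L and both smo.L probe sets, the shared gli2 probe set and gli3.L. Those of shh.L, boc.L, gli2.L and gli2.S fall on both sides of 0. The probe sets of hhip.L read the same gene, as do those of smo.L. The share of such signs over all tested probe sets was not counted, so nothing is read from them.

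Of the Gli genes, gli1.S was dim in both groups, and its groups did not overlap. Gli1 is an activator and is itself made in response to hedgehog signals. The probe set gave 20.8, 25.3 and 19.8 in treated explants, against 4.5, 5.1 and 3.4 in untreated explants. Each group was tight, with means of 22.0 ± 2.93 in treated and 4.33 ± 0.86 in untreated explants (SD, n = 3 each). All 6 values were nevertheless under the control level of 37.6, and therefore no fold is given. Its place among the 44 controls moved from group to group: it exceeded 34, 36 and 36 of them in treated explants and 9, 20 and 13 of them in untreated explants. No control probe set had all treated arrays above all untreated ones, and none differed upward by as much on the log2 scale. In 3 of the 44 controls, however, all treated arrays lay below all untreated ones, with a log2 difference as large as -1.78. Complete separation thus also occurs among probe sets without their transcript. Among the 2851 probe sets that were below the control level in both groups, 119 (4.17%) had all treated arrays above all untreated arrays, and 9 of these had a difference at least as large as gli1.S, with gli1.S counted among them. These counts were chosen after the gli1.S values were seen. In the fit with no filter gli1.S had an unadjusted p of 0.0019 and an adjusted p of 0.122 (0.090 with the block), so the difference did not pass.

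**Figure D4:**
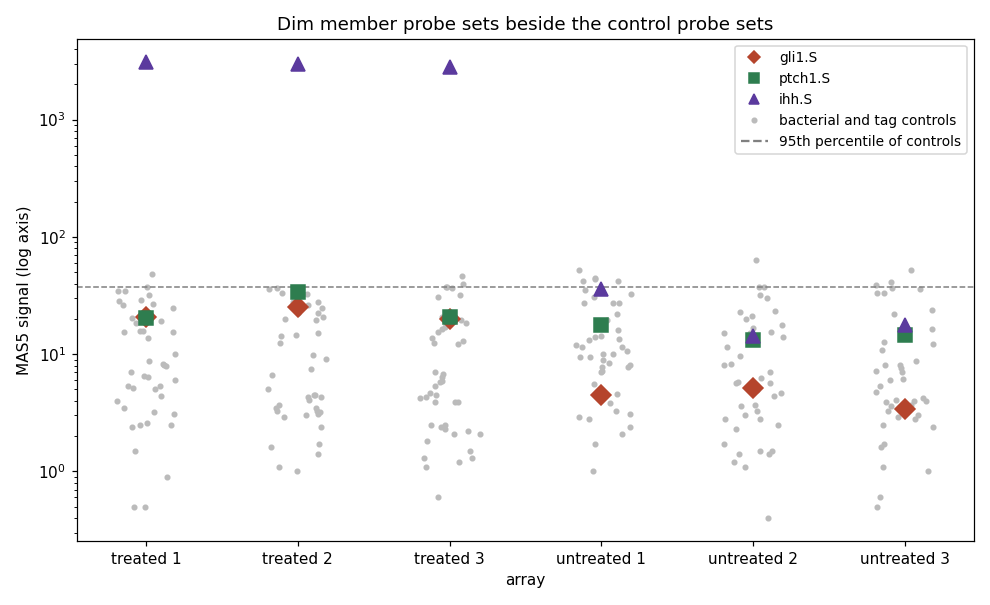
Signals (log axis) of gli1.S, ptch1.S and ihh.S on each array beside the 44 bacterial and tag control probe sets (grey). The dashed line is their 95th percentile, 37.6. On the 3 treated arrays gli1.S lies in the upper part of the controls (19.8 to 25.3), and on the 3 untreated arrays at 3.4 to 5.1. ihh.S is far above the controls on treated arrays and among them on untreated arrays.

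The gli2 copies were read by 3 probe sets. gli2.L had signals of 240.7, 107.4 and 139.3 in treated explants, against 148.4, 101.8 and 143.6 in untreated explants. Treated array 1 stood apart from the other 5, and without it the log2 fold change turned from 0.24 ± 0.29 to -0.08 ± 0.25 (SE, adjusted p = 0.794 with it and 0.904 without it). gli2.S had 57.7, 75.5 and 94.6 in treated explants, against 65.5, 83.5 and 52.1 in untreated explants, and overlapping groups differed by 0.18 ± 0.28 (SE) in log2 signal, with an adjusted p of 0.847. Same-numbered arrays disagreed for gli2.S, with log2 differences of -0.18 and -0.15 for numbers 1 and 2 and 0.86 for number 3. The response of gli2.L minus that of gli2.S was 0.07 on the log2 scale with an SE of 0.62 (exact permutation p = 1), too wide to say whether the copies respond alike.

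The probe set assigned to both gli2 copies showed a tighter picture than either. It had signals of 94.5, 88.2 and 112.6 in treated explants, against 73.7, 56.4 and 69.9 in untreated explants. The groups did not overlap, and same-numbered arrays differed upward by 0.36, 0.65 and 0.69. Its log2 fold change was 0.56 ± 0.23 (SE), with an interval from 0.06 to 1.07, an unadjusted p of 0.031 and an adjusted p of 0.360 in limma. It thus did not pass over all probe sets, nor with the block (adjusted p = 0.168). Which copy gave its signal cannot be told from it.

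gli3.L, the gene of the Gli factor that acts mainly as a repressor, had signals of 110.4, 124.0 and 130.7 in treated explants, against 91.2, 94.5 and 104.3 in untreated explants. The groups did not overlap, and the lowest treated value was close above the highest untreated one. Same-numbered arrays differed upward by 0.28, 0.39 and 0.33 on the log2 scale. The log2 fold change was 0.33 ± 0.20 (SE, adjusted p = 0.550), with an interval from -0.10 to 0.77, and it stayed between 0.28 and 0.40 in all alternatives run. gli3.L was thus at most 1.70-fold higher within its interval.

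No other gene of the pathway passed the test. A list of 63 names covered ligands, their processing and release, receptors, transducers and ciliary transport, and the array read 37 gene copies of it with a probe set of their own, of which 25 were tested. Of these 25, 2 rose (ihh.S and hhip.L), 0 fell and 23 did not pass in limma. Over all tested probe sets, 0.74% rose and 0.637% fell. Both calls are of members already counted, and ihh.S is the gene of bhh itself, so nothing is read from this count. Leaving out the 8 tested members, none of the other 17 passed with or without the block, and 1 was higher at an unadjusted p under 0.05. This was kif3b.S, a kinesin subunit gene of ciliary transport, with 0.49 ± 0.20 (adjusted p = 0.368). These 17 had log2 fold changes between -0.33 and 0.49 with a median of -0.04, against 0.0027 over all tested probe sets. Next by p, the glypican gene gpc4.L had 0.29 ± 0.14, and the casein kinase gene copies csnk1g3.L and csnk1g3.S had 0.42 ± 0.26 and 0.29 ± 0.22 (SE). A second gpc4.L probe set had 0.14 ± 0.24 (SE, limma adjusted p = 0.859). No ligand processing or release gene of the list had a probe set named for it.

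A further 12 gene copies of the pathway list had only dim probe sets. In 4 of them all treated arrays lay above all untreated arrays (gli1.S, ptch1.S, gsk3b.L and spop.L), and in 0 below. The share above was 8.25% of all probe sets, bright ones included, and 4.17% of those under the control level in both groups. Neither share is for copies picked as these were, and gli1.S and ptch1.S are members already counted. Nothing is read from this count. gsk3b.L, the gene of a kinase that phosphorylates Gli proteins, was named after its values were seen. Its signals were 55.6, 52.9 and 55.9 in treated explants, against 21.9, 24.3 and 16.5 in untreated explants, at least 1.46-fold higher (adjusted p = 0.103 when all probe sets above the control level in either group were tested). spop.L, whose product helps degrade Gli proteins, had 48.0, 47.7 and 42.4 in treated and 32.2, 26.3 and 31.2 in untreated explants, at least 1.22-fold higher (adjusted p = 0.480 in the same test). gsk3b.L and spop.L entered this test through their treated arrays alone. Neither passed, and the bounds carry no interval. Of the other dim copies, kif3a.L (at least 1.11-fold higher) and tulp3.L (at least 1.06-fold lower in treated explants) did not pass either (adjusted p = 0.621 and 0.722). kif3a.L entered the test through its treated mean alone and tulp3.L through its untreated mean alone.

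Among genes known to respond to hedgehog in some vertebrate tissue, several rose beside hhip.L. Of 36 listed names, 22 gene copies were tested, of which 8 rose, 1 fell and 13 did not pass. The names were chosen with earlier results of these data known, so this count is a description and not separate support. hhip.L was the only tested member among the 22 copies. Next to it, foxf1.L, foxd1.L and foxd2.S, forkhead transcription factor genes, had log2 fold changes of 1.44 ± 0.18, 1.47 ± 0.19 and 1.37 ± 0.18, and mycn.S, a growth gene, had 1.11 ± 0.16 (SE, adjusted p at most 0.0054). A second foxd1.L probe set, with 0.85 ± 0.27 (SE), did not pass (adjusted p = 0.211, or 0.073 with the block). The mesenchyme gene snai1.S (0.77 ± 0.13), the kidney and lateral plate gene osr1.L (0.99 ± 0.18) and the cyclin gene ccnd1.L (0.73 ± 0.15) rose too. The myogenic gene myf5.L fell by 1.34. The list gives no expected direction of change, so neither rises nor falls were scored against one. The list median was 0.45. The count of calls on this list was 5, all higher, without treated array 3, untreated array 2 or untreated array 3, as snai1.S, osr1.L, ccnd1.L and myf5.L lost their calls there. ccnd1.L lost its call without any 1 of the 6 arrays, and in 8 of 16 alternatives in all. With the block, 11 were higher and 1 lower, in a fit in which 3.65% of all tested probe sets rose, against 0.74% without it. sox9.S, with 1.09 ± 0.29, mycn.L, with 0.47 ± 0.13, and foxc2.S, with 1.58 ± 0.67, passed with the block and not without it (adjusted p of 0.135, 0.149 and 0.379 without it), while ccnd1.S, with 0.35 ± 0.18, passed in neither. foxf1.L and osr1.L are also genes of lateral plate mesoderm and myf5.L is a gene of muscle precursors. foxf1.L and myf5.L are themselves on the lateral plate and muscle marker lists below, and osr1.L is on the pronephros list. Apart from foxf1.L, the lateral plate markers hand1.L and gata5.S rose (log2 fold changes of 1.00 and 1.35). Apart from myf5.L, the muscle markers myh8.L, des.1.S and pax3.S fell (-0.84, -0.90 and -1.70). pax3.S, with a treated mean of 44.8 against the filter limit of 47.0, passed the filter through its untreated arrays alone. No other marker on either list passed.

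The array read markers of several tissues, and some of these differed between the groups. All 10 measured pronephros marker copies were above the control level in at least 1 group, and their summed signal was 1827 to 3304 in treated and 3106 to 5489 in untreated explants, with overlap. The brightest, atp1b1.S, alone ran from 740.5 to 2326.4 in treated and from 982.8 to 3175.3 in untreated explants. Of the 10, 1 rose (osr1.L) and 3 fell (fxyd2.S, lhx1.L and mecom.L). These 3 fell from means of 627, 421 and 387 in untreated explants to 26.5, 35.7 and 29.1 in treated explants, under the control level. Their treated means were also under the filter limit of 47.0, so they passed the filter through their untreated arrays alone. Muscle markers (15 copies) summed to 39678 to 46405 in treated and 55527 to 65206 in untreated explants, and lateral plate and smooth muscle markers (13 copies, both tagln copies averaging under the control level in each group) to 6112 to 6299 in treated and 3626 to 3743 in untreated explants. Epidermal markers (10 copies) summed to 64714 to 87584 in treated and 79657 to 102569 in untreated explants, with overlap. Neural markers summed to 2683 to 2838 in treated and 2791 to 3198 in untreated explants, endodermal ones to 2107 to 2293 in treated and 2005 to 2315 in untreated explants, and those of blood and vessels to 1668 to 2176 in treated and 1652 to 1870 in untreated explants. All of these sums overlapped too. No tested marker of epidermis, neural tissue, notochord and floor plate or endoderm passed the test. The tested copies numbered 9, 8, 4 and 3 in that order, and the filter removed the rest. Among those removed, sox17a.L (endoderm) had 41.4 to 52.3 in treated and 5.8 to 21.5 in untreated explants. tp63.L (epidermis) had 44.4 to 47.6 in treated and 23.1 to 35.1 in untreated explants. Both lay above the control level on treated arrays alone, and neither entered the test. The other removed copies of these tissues overlapped between the groups. Of 7 tested blood and vessel copies 1 fell (fli1.S, with a log2 fold change of -1.22), and of 13 tested muscle copies 4 fell (myf5.L included). The other tested blood and vessel copies went both ways without passing (limma adjusted p at least 0.107). hba3.L, aplnr.L, aplnr.S and gata1.L were higher (1.09, 0.81, 0.59 and 0.39), while lmo2.S and tal1.S were lower (-0.39 and -0.31). Of 10 tested lateral plate copies 3 rose (foxf1.L included). Over all tested probe sets 0.74% rose and 0.637% fell. As the lists were chosen with earlier results of these data known, these counts are a description. Muscle markers did not all go one way. myod1.S, pax3.L and myod1.L were higher without passing (log2 fold changes of 0.79, 0.77 and 0.36, limma adjusted p = 0.053, 0.093 and 0.550), while the other pax3 copy, pax3.S, fell. The part of tissue composition in the member values was not tested.

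Apart from the second hhip.L probe set (r = 0.995), the tested probe sets with 1 gene symbol whose log2 signal followed the brighter hhip.L probe set most closely over the 6 arrays were those of XB5872372.S, mthfd2l.S, xmc.L, pax3.L and cyp26a1.L, with Pearson r between 0.988 and 0.993. These values are a description: the 6 arrays share 1 contrast, so every gene that differs between the groups gains in r. Of these, XB5872372.S (0.71 ± 0.14) and xmc.L (1.42 ± 0.20) rose in the test. The signals of xmc.L were 470.8, 568.1 and 669.7 in treated explants, against 170.3, 262.4 and 209.0 in untreated explants. cyp26a1.L, which encodes a retinoic acid degrading enzyme, had a log2 fold change of 0.48 ± 0.12 and did not pass (adjusted p = 0.115). Among the members, r with hhip.L was 0.92 for ihh.S and gli3.L, 0.80 for the shared gli2 probe set, 0.79 and 0.76 for smo.L, 0.55 for gli2.S, 0.18 for boc.L, 0.012 for gli2.L and -0.35 for shh.L.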

How the data were processed

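The authors deposited 1 signal intensity per probe set and array, on a linear scale. The submitters' processing notes name MAS5 for it, with no version or settings. Per the labels' protocols, 1 µg of total RNA from each pool was amplified to biotin-labelled cRNA. As MAS5 takes mismatch probes off and sets arrays to one mean, signals near the control level are noisy. No 2 arrays held more than 0.250% identical values, and each counted as a sample.

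Of 15611 probe sets, 120 Affymetrix controls were left out. Genes were named from the platform's table and updated by gene identifier through the RefSeq table of Xenopus_laevis_v10.1, used for names only: 9304 probe sets had 1 symbol (9227 matched), 195 several and 5992 none. Only the gli2 probe set with several symbols is reported. Log2 signals were fitted with limma 3.58.1 in R 4.3.3 (eBayes with trend, two-sided), and figures drawn with matplotlib 3.10.9. The fit was tested on simulated data. For lists, the brightest probe set of each gene copy was counted. Named were all members, list genes that passed and up to 4 other genes of each list with the smallest p, and the 5 probe sets of 1 other gene most correlated with hhip.L. Where a group lay under the control level, folds are bounds, with its arrays set to that level. Members and lists were chosen with earlier results of these data known. The number of arrays limits the precision.

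Arrays with the same number deviated together from their group means (correlations 0.407, 0.178 and 0.298 for numbers 1, 2 and 3, all over 0.1), so a fit with the number as a block was run beside the fit without it. This pairing comes from the data; the labels do not explain the numbers, and 2 unlike-numbered pairs were over 0.1 as well (treated 3 with untreated 2 at 0.173, treated 2 with untreated 3 at 0.147). The median signal of the 18 hybridization control probe sets also fell with the number in both groups. It was 1795, 1393 and 780 on treated arrays 1, 2 and 3, and 2235, 1233 and 879 on untreated arrays 1, 2 and 3. What this order stems from was not tested. Alternatives are listed in the closing section.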

Additional observations from a re-analysis of the deposited data

How the results depend on the processing

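The calls of ihh.S and both hhip.L probe sets held in every alternative run. As ihh.S is the gene of bhh itself and passed the filter through its treated arrays alone, nothing is read from its part in this. The alternatives were quantile normalization, a common median, an offset of 16, no filter, removal of the dimmest 50% and a filter on the control level. Further ones were eBayes without trend or robust, array weights, the replicate block, and each array left out. Over all probe sets the 160 calls became 95 without trend, 657 with array weights and 733 with the replicate block, and ran from 60 to 187 with 1 array left out. The member count was 3 in all of these but 4 with the replicate block, by smo.L. No other member call changed with the block. The pathway list held 2 calls, or 3 with the block or with every probe set counted, and the response list 5 to 10 with 1 array left out. shh.L turned positive without treated array 2 (0.034) or untreated array 1 (0.097), and gli2.L negative without treated array 1; with 1 array left out, shh.L ran from -0.25 to 0.097, gli2.L from -0.082 to 0.50, the brighter smo.L probe set from 0.31 to 0.91, the dimmer from 0.22 to 0.51, boc.L from 0.064 to 0.62 and gli2.S from 0.0043 to 0.36, none of them passing. gli1.S and ptch1.S were tested only without a filter; the signal over background limits both.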
